A study of Drosophila melanogaster with 6 samples.

Results

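The 10 genes described here are grouped as enzymes of mucin-type O-glycosylation in Drosophila. They are the core 1 galactosyltransferase C1GalTA, its named homologue CG18558, whose activity was not examined here, and 8 polypeptide N-acetylgalactosaminyltransferases, Pgant1, Pgant2, Pgant3, Pgant4, Pgant5, Pgant6, Pgant7 and Pgant9. They were found by gene symbol among the probe sets whose array annotation gives a single gene, and all 10 were measured, by 13 of the 18769 probe sets tested. Their values come from S2 cells, a macrophage-like line of Drosophila that engulfs dying cells. In the first group, 3 cultures were given fragments of apoptotic S2 cells, 25 per cell, for 1 h at 25 °C. The other group held 3 cultures kept for the same time in medium with no fragments. Both groups were in medium with 1% serum, and both were detached with trypsin and EDTA before RNA was isolated. The fragments were prepared from S2 cells treated for 24 h with cycloheximide, an inhibitor of protein synthesis, at 1.5 µg/ml. RNA or cycloheximide carried with the fragments and a response of the phagocytes cannot be told apart in these cultures, nor can fewer cells with a transcript and less transcript per cell.

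Mucin-type O-glycosylation starts in the Golgi apparatus, where Pgant enzymes attach N-acetylgalactosamine to serine or threonine of a passing protein, which makes the Tn antigen. C1GalTA then adds galactose to form the core 1 disaccharide, known as the T antigen, which Drosophila can extend with glucuronic acid. T antigen is displayed by Drosophila hemocytes, the blood cells that S2 cells resemble, and mucins and matrix proteins are common carriers of these sugars.

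The comparison asks which transcripts differ after 1 h with fragments. The group was chosen with earlier results of this same comparison known, since the probe sets of C1GalTA and CG18558 are among those that pass the test over the whole array. The differences below are therefore descriptions, and no p-values are printed for the members. Where a member is said to pass or to be called, that too is a description and not evidence. All values are the deposited log2 expression values, and differences are fragments minus medium alone with a standard error (SE) or a 95% interval from limma, a linear model fitted to all probe sets. Probes differ in affinity, so the level of one probe set was not set against that of another. The titles call the replicates biological without further detail.

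Some facts of the arrays bear on every value. The deposited values of 11528 probe sets (61.4%) varied by less than 0.01 log2 units over the 6 arrays and are called flat. A flat probe set shows no change here, but neither absence nor constancy of its transcript follows from it. Replicate 3 of medium alone stood apart: over the 7241 varying probe sets it correlated at r = 0.9793 and 0.9807 with the other arrays of its group, which correlated with each other at 0.9986, while the fragment arrays correlated at 0.9947 to 0.9976. Replicates 1 and 2 of medium alone correlated better with every fragment array (0.9866 to 0.988) than with replicate 3. That replicate correlated at 0.9572 to 0.9671 with the fragment arrays. The hybridisation spikes, bacterial and phage transcripts that report on the arrays and not on the cells, read 10.38 ± 0.106 with fragments and 10.65 ± 0.16 in medium alone (SD, n = 3 each). Setting the arrays to these spikes adds 0.26 to every difference. The hemocyte genes srp, crq and Hml had varying values. Their means were 10.97, 9.30 and 9.30 with fragments and 10.68, 10.10 and 9.30 in medium alone. Values of drpr, with a mean of 9.19 in medium alone, and of ush varied too. So did eater, Pxn and He, with lower means of 6.85, 6.82 and 5.95 with fragments. In medium alone these were 6.97, 6.88 and 5.98, and He lay below the array medians of 6.45 to 6.46. NimC1, Sr-CI and another probe set of Pxn were flat. Among the hemocyte genes, crq, a CD36-family engulfment receptor gene, differed by -0.80 and passed among the varying probe sets only (limma adjusted p = 0.0056, and 0.0698 over all). The hemocyte gene ush differed by 0.63 with its groups apart and passed in neither fit (limma adjusted p = 0.608 over all and 0.256 among the varying), and it read 8.54 on replicate 3 of medium alone against 9.54 and 9.46 on the others. Of the 13 probe sets of markers of other cell types, 11 were flat. The varying ones were elav, at 8.43 with fragments and 8.14 in medium alone, and vas, at 6.09 and 6.17. Neither passed the test.

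Over all probe sets 57 passed a limma adjusted p of 0.05, which is 0.304% of those tested, 10 of them higher and 47 lower with fragments. The 13 probe sets of the O-glycan enzymes held 2 of these, C1GalTA among the falls (0.25% of all probe sets) and CG18558 among the rises (0.0533%). The share of falls among the calls rests on the scale, at 82.5% as deposited, 69.5% after quantile normalization and 11.5% on the spike scale. In a fit to the 7241 varying probe sets alone, 496 passed (6.85%), 166 higher (2.29%) and 330 lower (4.56%). Of the 9 varying probe sets of the O-glycan enzymes 3 were called there, CG18558 as higher and C1GalTA and Pgant3 as lower. With any 1 of the 6 arrays left out, the calls of C1GalTA and CG18558 ended in the fit to all probe sets and held in the fit to varying ones. Their differences then ran from -1.81 to -1.73 and from 0.72 to 0.77. Because these genes were picked with this comparison in view, nothing is read from the counts.

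C1GalTA, which makes core 1, showed the widest gap between the groups. Its probe set read 9.01, 8.99 and 9.11 on the fragment arrays, against 10.79, 10.75 and 10.91 on the arrays of medium alone. Every fragment array thus lay far below every array of medium alone. The difference was -1.78 (SE 0.057, 95% interval -1.93 to -1.62), a 3.43-fold fall, and only 4 of the 18769 probe sets had a larger fall. Spread within the groups was small beside it, with an SD of 0.0615 with fragments and 0.0793 in medium alone. Across the 7241 varying probe sets the median SD was 0.0677 and 0.0888. Left without replicate 3 of medium alone the difference was -1.73, and on the spike scale it was -1.52, a 2.86-fold fall. C1GalTA is represented by 1 probe set, whose suffix marks probes that can match more than 1 transcript, so no other probe set checks it.

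CG18558, also known as dC1GalT3 in the RefSeq gene table, went the opposite way. Its values were 6.96, 7.02 and 6.94 with fragments and 6.24, 6.27 and 6.17 in medium alone. The groups did not overlap, and the 3 arrays within each lay within 0.1 log2 units of each other. The gene rose by 0.75 log2 units (SE 0.037, 95% interval 0.65 to 0.85), or 1.68-fold on the deposited scale. Its values in medium alone lay below the array medians of 6.45 to 6.46, and detection calls were not used here, so a level above background is not shown there and the fold may not be exact. Without replicate 3 of medium alone the rise was 0.72, and on the spike scale 1.01. No sequence or activity of CG18558 was examined here, so its name as a homologue comes from the gene table alone.

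In the RefSeq gene order CG18558 stands in a short stretch with several homologues of the same enzyme. Its next neighbour on one side is CG2975 (dC1GalT4), whose annotated range overlaps its own, and CG3119 (dC1GalT7) and CG2983 (dC1GalT8) lie within 4 genes of it. CG2975 was flat at 6.42 and CG2983 at 6.11. CG3119 had a flat probe set at 6.40 and a varying one with a mean of 6.42 with fragments and 6.43 in medium alone. Among the homologues outside this stretch, tgy (dC1GalT5) differed by -0.033 (SE 0.043) and did not pass (limma adjusted p = 0.863), and CG8708, CG9109 and CG34057 were flat. The 7 other homologues measured had 8 probe sets, of which 6 were flat and 2 varied. With limma, 0 of the 8 were called over all probe sets (0.304% of the array was). Among the 2 varying ones 0 were called (6.85% of varying probe sets were). An unadjusted p under 0.05 was reached by 0 of the 8, beside 2031 of the 18769 on the array. With so few varying probe sets, no contrast with CG18558 is read from these counts.

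**Figure D1:**
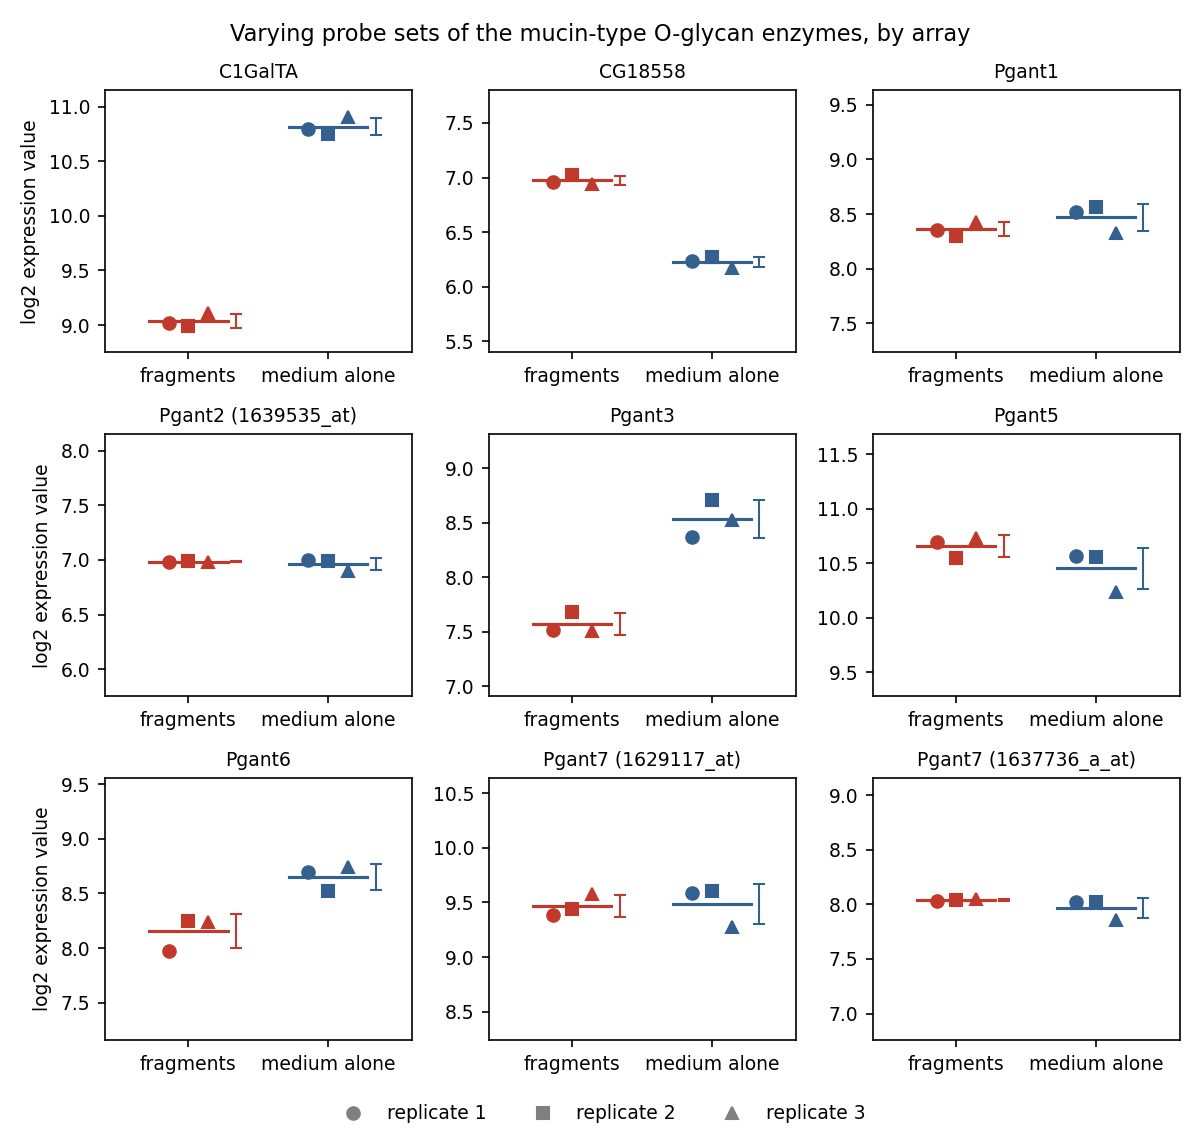
Log2 expression values of the 9 varying probe sets of the O-glycan enzymes, fragments on the left and medium alone on the right of each panel. Markers are single arrays by replicate number, horizontal lines are group means, bars are ± 1 SD (n = 3), and all panels span the same range of log2 units. C1GalTA and Pgant3 lie lower and CG18558 higher with fragments, while Pgant5 and both Pgant7 probe sets read lowest on replicate 3 of medium alone.

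The Pgant genes that differed most were both lower with fragments. Pgant3 encodes a transferase known from the fly wing, where it modifies the matrix protein Tiggrin and cell adhesion depends on it. It read 7.52, 7.68 and 7.51 with fragments and 8.37, 8.71 and 8.52 in medium alone, with no overlap between the groups. The difference was -0.96 (SE 0.112, 95% interval -1.27 to -0.66), a 1.95-fold change. It did not pass over all probe sets but passed among the varying ones, a call that ended without fragment replicate 1. On the spike scale the difference was -0.70, and it was -0.97 without replicate 3 of medium alone.

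Pgant6 had values of 7.97, 8.25 and 8.24 with fragments and 8.70, 8.52 and 8.74 in medium alone. The groups were narrowly apart, the highest fragment array at 8.25 and the lowest array of medium alone at 8.52. The difference of -0.50 (SE 0.111, 95% interval -0.80 to -0.19) was called in neither fit, and it was -0.24 on the spike scale. Left without fragment replicate 1, the lowest of its group, it was -0.41.

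The transcript of Tig, the gene that encodes Tiggrin, read 10.77 ± 0.0435 with fragments and 10.72 ± 0.125 in medium alone (SD, n = 3 each). The protein was not measured. The difference of 0.050 (SE 0.075) did not pass (limma adjusted p = 0.887).

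Pgant1, Pgant5 and Pgant7 were called in neither fit, and the 95% interval of each difference included 0. Pgant5, which acts in the larval gut, read 10.70, 10.55 and 10.73 with fragments and 10.57, 10.56 and 10.23 in medium alone. Its groups overlapped, and the difference of 0.21 (SE 0.122, 95% interval -0.13 to 0.54) was 0.096 without replicate 3 of medium alone, the lowest array. On the spike scale it was 0.47 and passed there, although that scale brings the scatter of the spikes into the test. Pgant1 read 8.35, 8.30 and 8.43 with fragments and 8.52, 8.56 and 8.33 in medium alone. These groups also overlapped, and the difference of -0.11 (95% interval -0.33 to 0.11) turned to 0.15 on the spike scale.

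Pgant7 encodes a transferase that acts on peptides already carrying a sugar, and 2 varying probe sets measured it. One (1629117_at) read 9.39, 9.44 and 9.58 with fragments and 9.59, 9.60 and 9.28 in medium alone, a difference of -0.019 (95% interval -0.35 to 0.31) that was 0.24 on the spike scale. The other (1637736_a_at) read 8.03, 8.04 and 8.05 with fragments and 8.02, 8.02 and 7.86 in medium alone. Its fragment arrays lay just above the rest, with a difference of 0.072 (95% interval -0.074 to 0.22) that was 0.018 without replicate 3 of medium alone. Both probe sets thus read lowest on that replicate, and their differences had opposite signs on the deposited scale.

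Pgant2 had 1 varying and 1 flat probe set. The varying one read 6.977, 6.986 and 6.983 with fragments and 6.999, 6.989 and 6.903 in medium alone, a difference of 0.018 (95% interval -0.065 to 0.10). Its flat probe set stood at 6.12 on each array. Pgant4, whose product protects the secretory protein Tango1 from cleavage in the gut, was flat at 6.34. Pgant9, which shapes secretory granules in the salivary gland, was flat on both of its probe sets, at 6.14 and 6.11. For Pgant4 and Pgant9 these arrays can show no change in either direction.

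**Figure D2:**
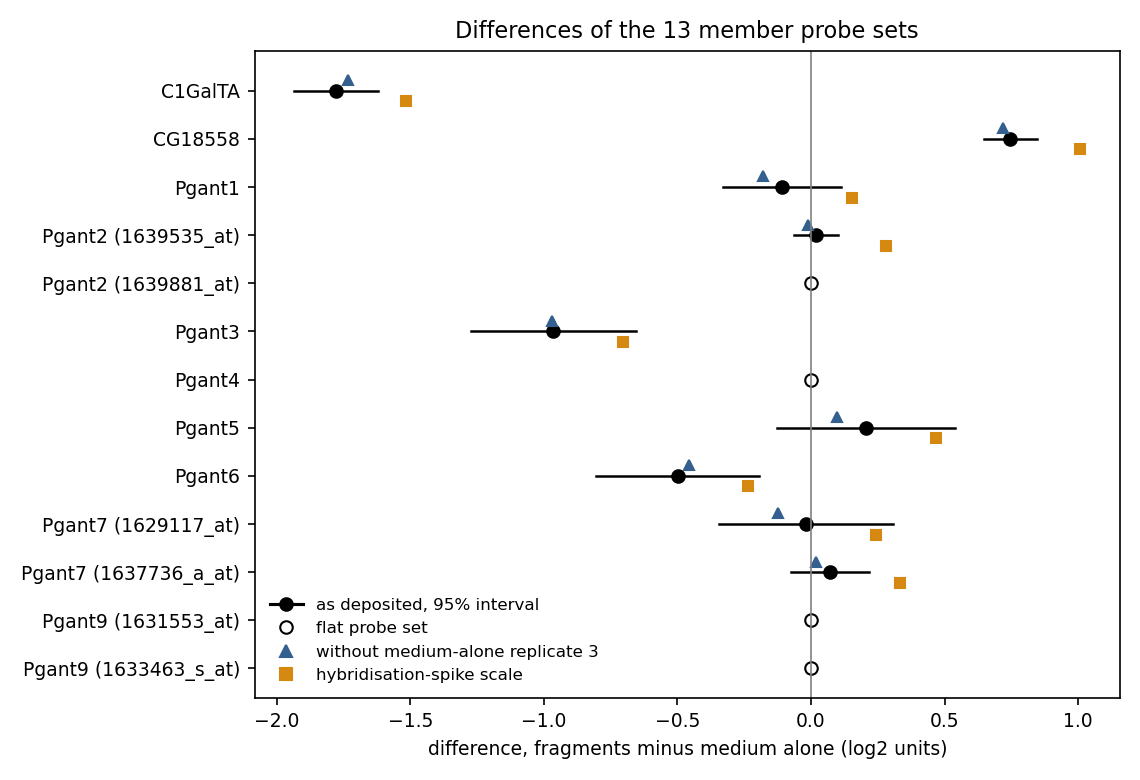
Difference of each of the 13 probe sets, fragments minus medium alone in log2 units. Black circles with lines are the deposited values with 95% intervals, open circles are flat probe sets, blue triangles leave out replicate 3 of medium alone, and orange squares, not drawn for flat probe sets, are on the spike scale. C1GalTA at -1.78 and CG18558 at 0.75 keep their direction under both, while Pgant1 and Pgant7 (1629117_at) lie on the other side of 0 on the spike scale.

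As a set, the 9 varying probe sets had a median difference of -0.019 and a median absolute difference of 0.21, beside -0.0035 and 0.096 over all 7241 varying probe sets. A difference of at least 0.5 log2 units in either direction was reached by 3 of them, C1GalTA, Pgant3 and CG18558, and by 8.59% of all varying probe sets. In 5 of the 9 the 3 fragment arrays lay wholly to one side of the 3 arrays of medium alone, 2 above and 3 below, beside 32% of varying probe sets (14.7% above and 17.4% below). C1GalTA and CG18558 were known to pass this comparison when the group was chosen, so these values are partly set by that choice. Nothing is read from them. Among the 7 varying probe sets of Pgant genes the median absolute difference was 0.11, and 1 of them, Pgant3, reached 0.5. The fragment arrays lay wholly above in 1 of these 7 and wholly below in 2. Flat values made up 4 of the 13 probe sets, beside 61.4% of the array.

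Replicate 3 of medium alone read below the mean of replicates 1 and 2 in 7 of the 9 varying probe sets and in 52.4% of all varying probe sets. The deviations were -0.33 for Pgant5, -0.32 and -0.16 for the probe sets of Pgant7 and -0.21 for Pgant1. They were 0.13 for both C1GalTA and Pgant6, -0.079 for CG18558 and -0.016 for Pgant3. The median size of this deviation was 0.133 in the group and 0.131 over all varying probe sets.

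**Figure D3:**
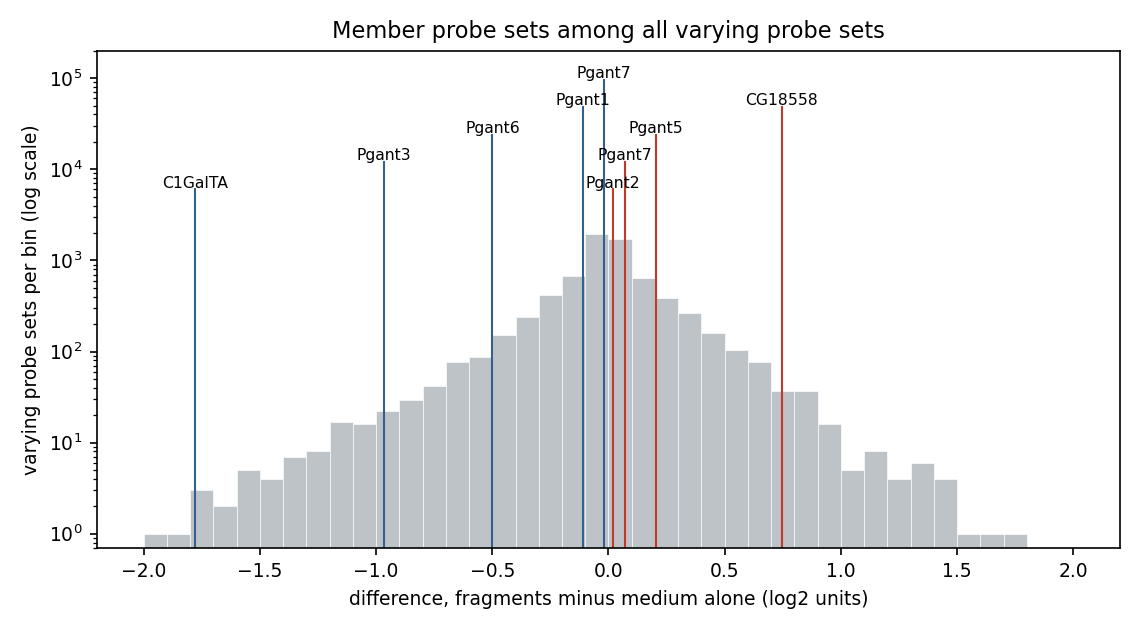
Differences of the 7241 varying probe sets, fragments minus medium alone in log2 units, as counts per bin of 0.1 on a log axis, with labelled lines at the 9 varying probe sets of the O-glycan enzymes. Blue lines are below 0 and red lines above; the height of a line has no meaning. C1GalTA lies in the sparse lower tail, CG18558 and Pgant3 lie on either slope, and the remaining Pgant lines other than Pgant6 fall in the tall bins near 0.

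The other genes of the pathway were taken from written lists. These were made with earlier results of these data known but were not picked by their values here. They were other GalNAc-transferases, other core 1 homologues, enzymes that add glucuronic acid, and suppliers and transporters of sugar donors. A further list was written as T antigen regulators and Golgi helpers, a title that does not establish that role for each gene. The last held mucins and other O-glycosylated proteins. The lists together comprised 76 probe sets of 65 genes, and 46 of the probe sets were flat. With limma, 0 of the 76 passed over all probe sets (0.304% of the array did). An unadjusted p under 0.05 was reached by 6 of the 76, beside 2031 of the 18769 on the array. Among the 30 varying ones 0 passed (6.85% of varying probe sets did). There 7 had an unadjusted p under 0.05, beside 1712 of all 7241 varying probe sets, so no excess is read from these counts. Their varying probe sets had a median difference of -0.011 and a median absolute difference of 0.063.

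Enzymes that extend core 1 gave the largest upward difference of these lists. GlcAT-S, a glucuronyltransferase, read 8.72, 8.82 and 8.48 with fragments and 8.22, 8.28 and 7.66 in medium alone. The groups did not overlap, but replicate 3 of medium alone was the lowest array by far. The difference of 0.62 (SE 0.218) did not pass (limma adjusted p = 0.445, or 0.130 in the varying fit) and was 0.42 without that array. GlcAT-I, which acts in proteoglycan linker synthesis, differed by -0.058 (SE 0.053, limma adjusted p = 0.799), and GlcAT-P was flat at 7.72.

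Genes that supply sugar donors gave the largest downward one. Galk, the galactokinase that brings free galactose toward UDP-galactose, read 7.35, 7.70 and 7.88 with fragments and 8.18, 8.17 and 8.49 in medium alone. These groups did not overlap either. The difference of -0.64 (SE 0.186) did not pass (limma adjusted p = 0.368, or 0.0898 in the varying fit). Efr, a nucleotide-sugar transporter, differed by -0.49 (SE 0.191, limma adjusted p = 0.487), and mmy, which makes UDP-N-acetylglucosamine, by -0.026 (SE 0.0052, limma adjusted p = 0.234). Ugalt, the UDP-galactose transporter that feeds the reaction of C1GalTA, read 8.84, 8.86 and 9.09 with fragments and 9.06, 9.02 and 9.01 in medium alone, and its groups overlapped.

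The remaining lists held smaller differences or flat values. Pgant35A, a GalNAc-transferase needed for the tracheal tubes, differed by -0.17 (SE 0.068, limma adjusted p = 0.520), CG7304 by 0.023 (SE 0.016, limma adjusted p = 0.730), and Pgant8, CG7579, CG10000 and CG31776 were flat. In the list of T antigen regulators and Golgi helpers, mrva differed by -0.066 (SE 0.079, limma adjusted p = 0.849). It encodes Minerva, a transporter-like protein that raises T antigen in embryonic macrophages. Qsox1, a sulfhydryl oxidase of the secretory pathway, differed by -0.14 (SE 0.057, limma adjusted p = 0.508). Tango1, the Pgant4 substrate, differed by 0.16 (SE 0.089, limma adjusted p = 0.638) and the ABC transporter gene Atet by 0.43 (SE 0.266, limma adjusted p = 0.682). Of the 34 measured genes of mucins and O-glycosylated proteins, 22 were flat on every probe set. The smallest p-values there belonged to Cht7 and Mur29B, which were flat, and to Muc68Ca, which differed by 0.28 (SE 0.078, limma adjusted p = 0.351) on one probe set and by 0.067 on another, its other probe set being flat.

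**Figure D4:**
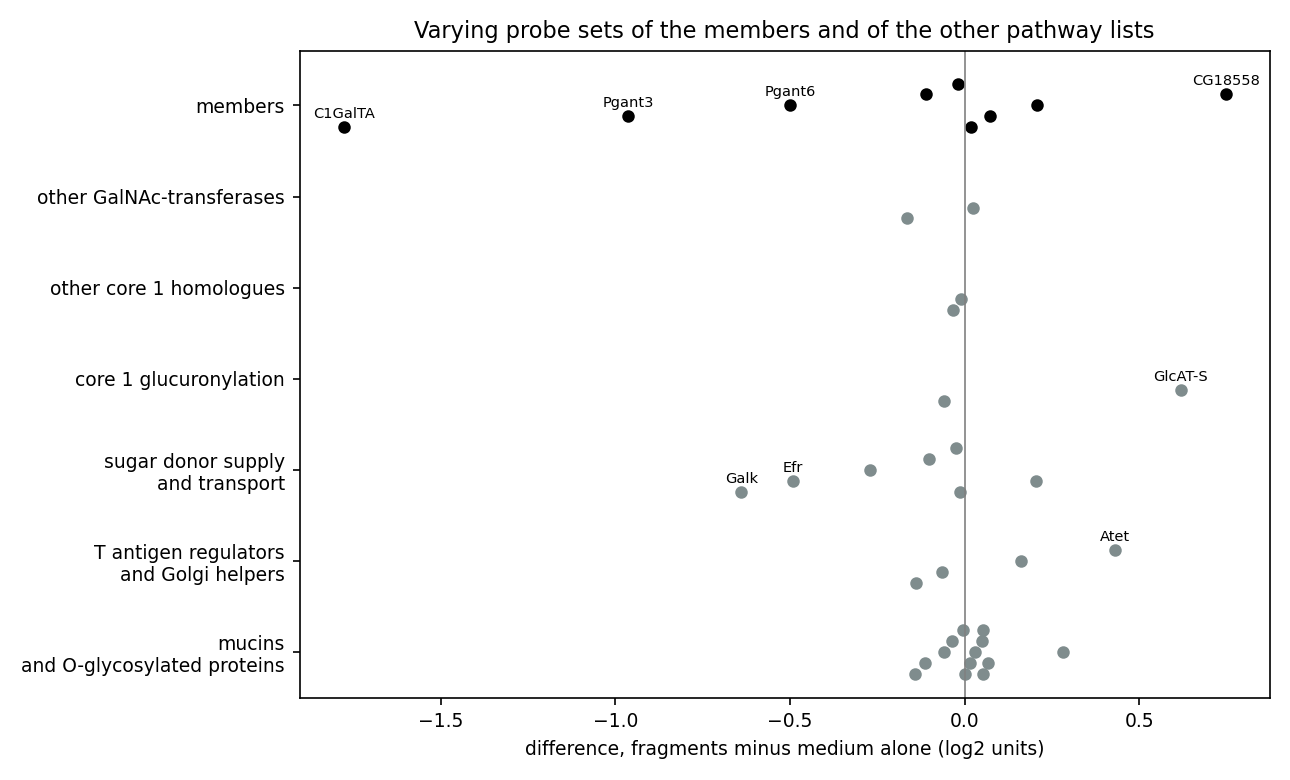
Differences of varying probe sets, fragments minus medium alone in log2 units, with 1 point per probe set: the O-glycan enzymes in black at the top and the 6 other lists in grey below. Points are spread vertically only to be seen, and those of at least 0.4 in size are named. The grey points lie between Galk at -0.64 and GlcAT-S at 0.62, and none of them passed the test.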

How the data were processed

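Biotinylated cRNA made from 150 ng of total RNA was hybridised to Affymetrix arrays, per the labels' protocols. The authors deposited 1 log2 expression value per probe set and array, between 5.35 and 14.1. The submitters' processing notes name R 2.7.2; the method of probe summary and normalization was not given in the sources used here. Arrays have no read depth, and their number limits the precision.

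The values were used as deposited. After 183 manufacturer's controls were left out, 18769 probe sets were compared between groups with limma 3.58.1 in R 4.3.3 (lmFit, eBayes without trend, two-sided, Benjamini-Hochberg over all probe sets, called under 0.05). Flat probe sets (range under 0.01) drew the prior SD to almost 0, with 0.123 prior degrees of freedom, so the fit was repeated without them (prior SD 0.0612, 1.36 degrees of freedom). The fit was also run on simulated data with known changes, drawn independently for each probe set and array. Those data held no array set apart like replicate 3 of medium alone. The check applied was that estimated sizes came near the true ones, so it does not speak to false calls on the real arrays. Gene names come from the array annotation, and current names and neighbours from RefSeq (Release 6 plus ISO1 MT); no coordinates are given, as no build is named for the array. No sequences are shown. All 10 member genes are named, with, per list, called genes or up to 3 genes of smallest p; other genes named, such as Tig, Ugalt and tgy, were added after their values were seen. The members and lists were chosen with earlier results of these data known. Alternatives were other probe set filters, quantile and spike scaling, trended and robust priors, single arrays left out and a replicate block.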

Additional observations from a re-analysis of the deposited data

How the results depend on the processing

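The number of arrays and the flat values limit these results. C1GalTA, CG18558, Pgant3, Pgant5 and Pgant6 kept their direction under each alternative that included them. Of the O-glycan probe sets, 4 passed on the spike scale (Pgant3 and Pgant5 added) and 1 when probe sets with shared-probe suffixes were left out, C1GalTA being one of those. With only means of at least 7 kept, 2 passed, C1GalTA and Pgant3, both lower, as CG18558 fell under that level and was not tested. With any single array left out, limma called 0 over all probe sets (range 0 to 0, with 4 to 5 at an unadjusted p under 0.05), while without flat probe sets 2 to 3 passed, C1GalTA and CG18558 each time. Over the whole array 496 probe sets passed without flat probe sets, 128 after quantile normalization, 1685 on the spike scale, 232 with means of at least 7, 19 without shared-probe suffixes, 0 to 8 with single arrays left out, and, with both omissions, 156, 183 and 876 without replicate 1, 2 or 3 of medium alone and 140, 129 and 318 without fragment replicate 1, 2 or 3. Of the 76 other pathway probe sets 5 passed on the spike scale (GlcAT-S, sgl, Atet, Muc68Ca and Tango1, all higher). On the array 1685 of 18769 passed there, 1492 of them higher. That scale adds 0.26 to every difference, so nothing is read from this count or its direction. Without flat probe sets and without replicate 3 of medium alone 1 of 30 passed, Muc68Ca, beside 876 of 7241. Why these counts differ was not tested. Signs turned for Pgant1 (0.15) and Pgant7 1629117_at (0.24) on the spike scale. With single arrays left out, the difference of Pgant7 1629117_at ran from -0.12 to 0.038 and was 0.031 without replicate 1 of medium alone and 0.024 without fragment replicate 1. For Pgant2 it ran from -0.012, without replicate 3 of medium alone, to 0.036. The omissions combined with leaving out flat probe sets, and the block among varying probe sets, were chosen after seeing the data.

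The titles do not say that a number marks a shared day, so the main fit did not pair the arrays. Same-numbered arrays had correlations of 0.442, 0.0381 and 0.375 between their deviations from the group means. Arrays of unlike number had correlations from -0.485 to 0.463. Whether the numbers mark shared cultures was not tested. With the replicate block, limma called 0 probe sets over the whole array and 0 O-glycan probe sets, with 1868 and 3 at an unadjusted p under 0.05. Among varying probe sets the block gave 449, 3 O-glycan probe sets, and 1 of the other pathway probe sets, GlcAT-S. Not every array correlated best with its own number. Exact two-sided permutation tests cannot go below 0.1 with 3 against 3 arrays and so could not pass.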
